A study of Mus musculus with 35 samples.

Results

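Cytosolic ribosomal protein genes were followed in regulatory T cells (Tregs) of 2 tissues over the light and dark cycle. Members were taken by name, as symbols that begin with Rpl or Rps and a digit, plus Rplp0, Rplp1, Rplp2 and Rpsa. S6 kinase genes and pseudogene symbols with "-ps" were left out, and a mean of at least 5 CPM (counts scaled to the library total) over all libraries was required. Of 55011 gene symbols, 94 fitted the name and 83 passed the level: 46 genes of the large (60S) subunit, 31 of the small (40S) subunit and 6 others. The 6 others were the paralogs Rpl7l1, Rpl22l1, Rpl36al and Rps27l, the copy Rps3a3, annotated as a processed pseudogene, and Rps19bp1, which by its name encodes a protein that binds Rps19 and is no part of the ribosome.

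All mice were wild-type C57BL/6 males, retired breeders over 35 weeks old, housed with 12 h light and 12 h dark phases. CD4+ CD25+ cells of visceral adipose tissue (VAT) and of spleen were sorted in 2 passes, with 1000 cells for each library. Collection was at Zeitgeber time (ZT, hours after lights on) 0, 4, 8, 12, 16 and 20. There were 17 VAT and 18 spleen libraries, 3 for every tissue and time apart from VAT at ZT20, which had 2. Whether replicates are separate animals is not stated in the labels, so the p-values reflect only the spread between these samples, and that spread may be technical.

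Each cytosolic ribosome holds 1 copy of nearly every ribosomal protein, and cells regulate their genes together. Most of their mRNAs start with a run of pyrimidines, the 5' terminal oligopyrimidine (TOP) motif, through which the kinase mTOR and the protein Larp1 control translation. T cells raise ribosome production when they are activated and grow.

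To show the start regions of genes that the results turn on, 30 bases around the RefSeq start (15 on each side, build GRCm38.p6, on the gene's strand) were read for 62 of the 83 members that matched the table. Capitals mark the longest run of C and T in the window. The first 4 genes had the largest differences between tissues, Rplp2 had the smallest p for a difference in rhythm, and Rpl14, Rps2 and Rps19bp1 did not pass the test between tissues.
Rpl37 (chr15:5116598-5116627, + strand): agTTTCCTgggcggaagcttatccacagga
Rpl12 (chr2:32961697-32961726, + strand): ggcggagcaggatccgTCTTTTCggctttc
Rps10 (chr17:27635230-27635259, - strand): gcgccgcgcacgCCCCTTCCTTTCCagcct
Rps16 (chr7:28350674-28350703, + strand): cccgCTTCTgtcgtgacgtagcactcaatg
Rplp2 (chr7:141447636-141447665, + strand): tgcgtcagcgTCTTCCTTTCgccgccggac
Rpl14 (chr9:120571502-120571531, + strand): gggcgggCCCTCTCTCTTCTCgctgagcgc
Rps2 (chr17:24720048-24720077, + strand): aggcagtcgagatctcgcgCTTCTTggagc
Rps19bp1 (chr15:80264292-80264321, - strand): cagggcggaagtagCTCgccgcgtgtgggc
A run of at least 8 pyrimidines stood in this window for 25 of 62 members (40.3%), against 3205 of 27025 starts in the table (11.9%). Rpl14, with a run of 14, and Rps10, with 13, held long runs, while Rpl37 held 6 and Rps16 5. Both the genes with the largest differences between tissues and those not called thus included short and long runs.

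The libraries held 2069319 to 6260185 counts. Tregs were checked by their markers: 7 Treg genes summed to a level of 5301 to 6810 CPM per library in VAT, and of 3246 to 4072 CPM in spleen. The 6 VAT Treg genes, among them Il1rl1, Pparg and Klrg1, summed to 8961 to 11289 CPM in VAT and 195 to 386 CPM in spleen. B cell markers (6 of 6 detected) summed to 82.2 to 253 CPM in VAT and 1386 to 3355 CPM in spleen. Nearly all of this was Ighm, with a mean of 2005 CPM in spleen, while the defining B cell gene Ms4a1 averaged 0.511 CPM there. Macrophage or monocyte markers summed to 10.3 CPM in VAT and 49 CPM in spleen.

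Member genes took a smaller part of the library in VAT. Their summed counts were 1.64% ± 0.262 of the total in VAT (SD, n = 17; lowest 1.25, median 1.65, highest 2.29) and 3.21% ± 0.593 in spleen (SD, n = 18; lowest 2.45, median 3.08, highest 4.43). On this scale no VAT library reached the lowest spleen library. In bulk samples of sorted cells, fewer cells of a type and less RNA per cell cannot be told apart. The 50 other genes of highest level took 21.9% ± 1.76 of VAT counts and 14.1% ± 1.36 of spleen counts. With TMM library sizes, which allow for such a difference in composition, the gap between the tissues was 1.02 percentage points instead of 1.57. The tissues then overlapped: the 2 VAT libraries at ZT20, at 2.62% and 2.74%, lay above 7 of the 18 spleen libraries, of which the lowest was 2.14%, while the other VAT libraries reached at most 1.99%.

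**Figure D1:**
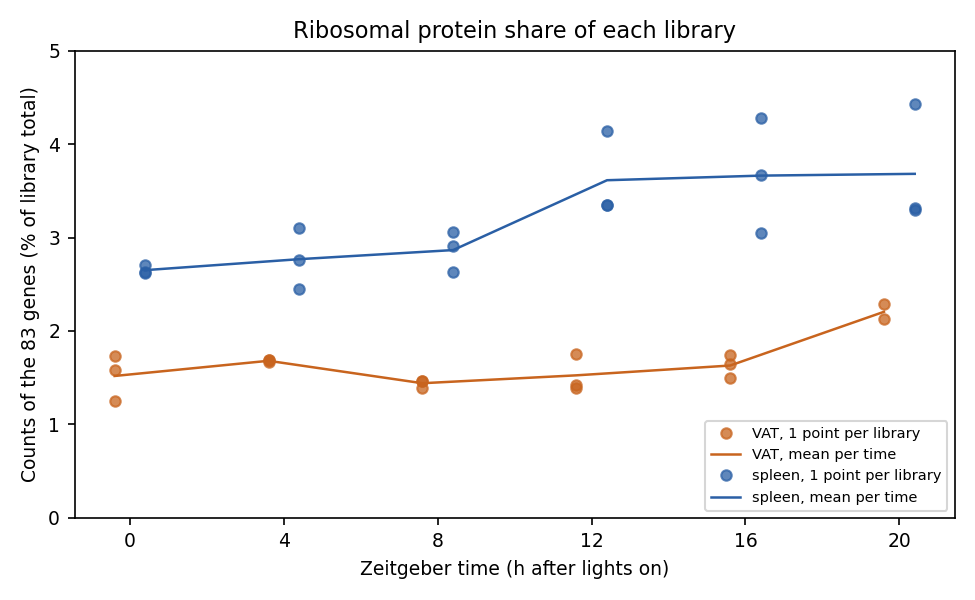
Summed counts of the 83 ribosomal protein genes as a percentage of each library's total (vertical axis) by Zeitgeber time in hours (horizontal axis), with 1 point per library and lines through the mean of each time, VAT in orange and spleen in blue. By library totals, as plotted, all VAT libraries lie below all spleen libraries, and the 2 VAT libraries at ZT20 are the highest VAT points.

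A few genes made up much of the family's counts. Rpl4, which lines the exit tunnel, Rps3 at the mRNA entry, the stalk scaffold Rplp0 and Rpl8 were among them. Rpl4 alone took 15.99% ± 0.563 of the family's counts in VAT and 15.8% ± 0.710 in spleen (SD, n = 17 and 18). After TMM scaling, Rpl4 stood at 2367 CPM per kb of coding sequence in VAT and Rpl24 at 16.3, and in spleen they stood at 3612 and 17.5. Proteins present in equal number in the ribosome thus had genes with widely different counts per coding length. Untranslated parts of the mRNA were not included in this length.

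The reads were 25 nt long, so each coding sequence was split into all its 25-base words to see how many are found in no other gene's annotated transcripts. Over the 82 members with an annotated coding sequence, the median share of such unique words was 2.25%, and 63 members were under 10%. The 19 members at 10% or more had a median level of 692 CPM (of library totals) per kb, against 236 CPM per kb for the 63 under 10%. Of the abundant genes, Rpl4 had 52% unique words, Rps3 73.8% and Rpl8 88.2%. Across members, level per kb and uniqueness had a Pearson's r of 0.30 and a Spearman's rho of 0.38 (n = 82 genes counted in the same libraries). How reads that match several genes were counted is not given in the sources used here, so levels of single members, and the values of those with close copies, are uncertain.

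**Figure D2:**
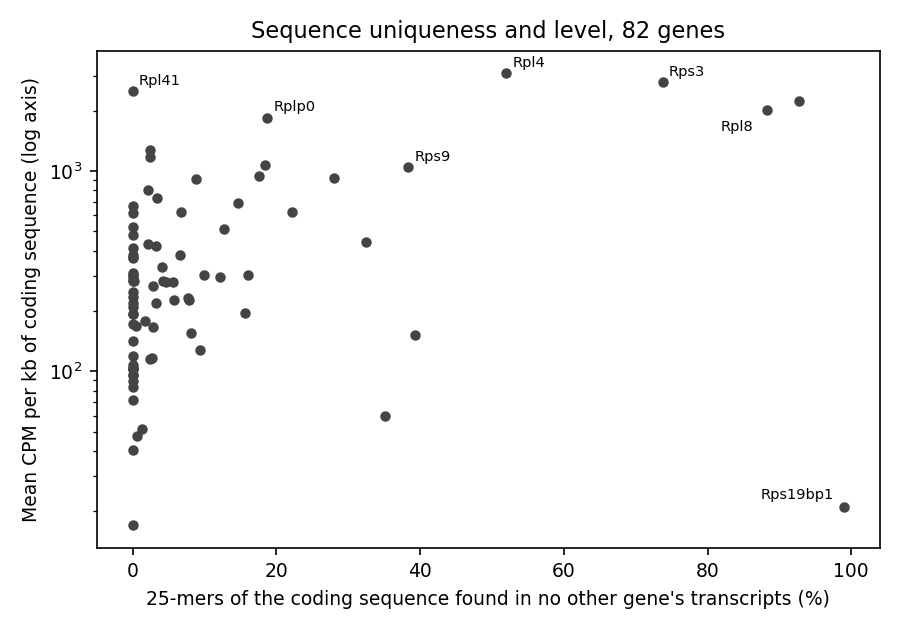
Mean level in CPM per kb of coding sequence (vertical log axis) against the percentage of the coding sequence's 25-base words that are found in no other gene's transcripts (horizontal axis), 1 point for each of 82 genes. Rpl4, Rps3 and Rpl8 combine high uniqueness with high level, and Rps19bp1 has high uniqueness and a low level. Rpl41 has a high level per kb with no unique word, at 188 CPM and a coding length of only 75 nt.

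At the 5 CPM threshold, the members just inside were Rps3a3 at 5.95 CPM, Rpl24 at 8.01, Rps19bp1 at 8.98, Rps29 at 15 and Rps27l at 15.1 (CPM of library totals). Just outside were Rps4l at 2.59, Rps27rt at 2.52, Rps3a2 at 1.66, Rpl37rt at 1.46 and Rpl6l at 0.60. The remaining 6 of the 11 left out were Rpl39l, Rpl32l, Rpl3l, Rps23rg1, Rpl10l and Rps12l1, at 0.225 CPM or less. Paralogs known from testis or muscle, Rpl39l, Rpl10l and Rpl3l, were thus at trace level in these Tregs.

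To compare the tissues, the mean of the 6 VAT times was set against that of the 6 spleen times with edgeR's quasi-likelihood test, adjusted by Benjamini-Hochberg over 15910 genes. Gene levels from here on are CPM after TMM scaling, and summed markers stay on library totals. Of the 83 members, 76 were lower in VAT, 0 were higher and 7 did not pass (adjusted p under 0.05), and all 83 passed the low-count filter. Among all genes tested, 33.8% were lower in VAT and 28.4% higher. The median log2 fold change of the members was -0.62, with a range from -1.13 to 0.21, and that of all genes was -0.10. DESeq2's test likewise called 76 members lower and 0 higher.

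**Figure D3:**
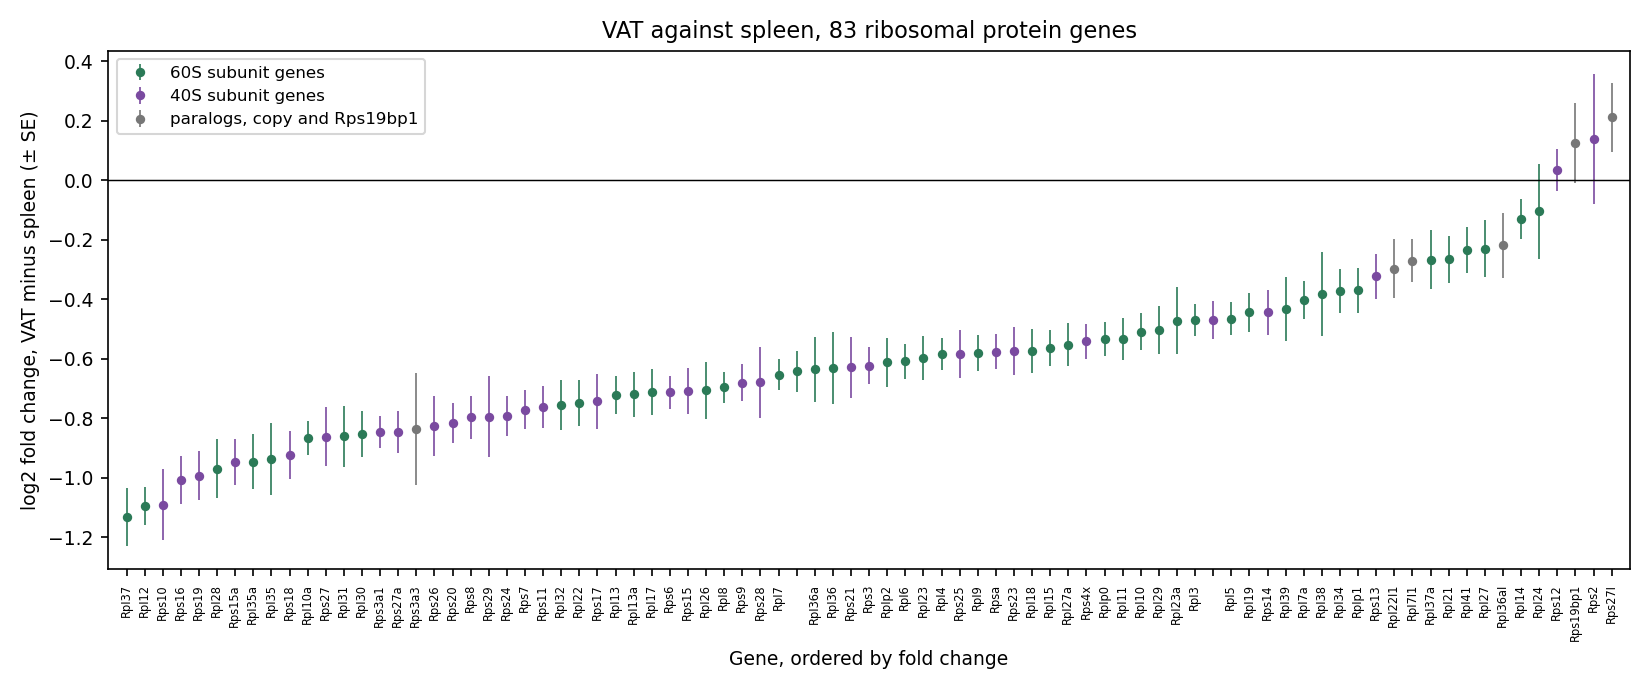
Log2 fold change of VAT minus spleen with its SE (vertical axis) for each of the 83 genes (horizontal axis, ordered, most of them named), with 60S genes in green, 40S genes in purple and the 6 others in grey. Values run from -1.13 for Rpl37 to 0.21 for Rps27l, and 7 genes at the right end were not called.

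Both subunits took part. In the 60S subunit 44 of 46 genes were lower in VAT (median -0.58), in the 40S subunit 29 of 31 (median -0.74), and of the 6 others 3 (median -0.24). At each time of day, between 67 members (ZT20) and 82 (ZT12 and ZT16) had a lower mean in VAT. A lower mean at all 6 times was found for 63 of the 83 members and for 4245 of the 15910 genes tested. The counts at single times were not made over all genes. The median difference was -0.48 at ZT0, -0.32 at ZT4, -0.64 at ZT8, -0.95 at ZT12, -0.88 at ZT16 and -0.35 at ZT20 (log2).

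Mitochondrial ribosomal protein genes, which build the separate ribosome of that organelle, gave a different count at the same threshold. Of 75, 34 were lower in VAT and 8 higher, with a median of -0.19, beside 33.8% and 28.4% of all genes tested.

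Rpl12, a protein at the base of the ribosomal stalk, had 1 of the largest differences. VAT libraries ranged from 117 through a median of 152 to 237 CPM, and spleen libraries from 240 through 335 to 465 CPM. The groups did not overlap, which held for 3 members (with Rps3a1 and Rpl10a) and for 4.02% of all genes tested in this direction. Rpl12 was 2.14-fold lower in VAT (log2 fold change -1.09 ± 0.06, SE; adjusted p = 5.39e-18).

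Rpl37, a zinc-binding 60S protein, showed the largest fold change. It ranged from 13.4 through a median of 21.8 to 31 CPM in VAT, and from 30.1 through 48.6 to 84.7 CPM in spleen, so that the groups overlapped only at the edge. The log2 fold change was -1.13 ± 0.10 (adjusted p = 8.88e-13). The 40S genes Rps10, Rps16, Rps19 and Rps15a had log2 fold changes of -1.09, -1.01, -0.99 and -0.95, and the 60S genes Rpl28 and Rpl35a of -0.97 and -0.95. Rps19 is the gene most often mutated in Diamond-Blackfan anaemia.

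The most abundant genes were lower in VAT by less. Rpl4 averaged 2975 ± 566 CPM in VAT and 4541 ± 812 CPM in spleen (SD, n = 17 and 18), 1.5-fold lower (log2 fold change -0.58 ± 0.05). Rps3 was 1.54-fold, Rplp0 1.45-fold and Rpl8 1.62-fold lower (Rpl8 adjusted p = 2.37e-14). Most of the 25-base words of Rps3 and Rpl8 are found in no other gene.

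Of the stalk proteins that recruit translation factors, Rplp1 and Rplp2 stood at log2 fold changes of -0.37 ± 0.08 and -0.61 ± 0.08, beside -0.53 ± 0.06 for their scaffold Rplp0. Rpsa, the 40S protein also known as a laminin receptor, had -0.58 ± 0.06.

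Paralogs were set beside their partners. Rpl22, needed for T cell development, had a log2 fold change of -0.75 ± 0.08 and its paralog Rpl22l1 of -0.30 ± 0.10 (adjusted p = 0.00926). Rpl7 had -0.65 ± 0.05 and Rpl7l1 -0.27 ± 0.07. Rps27 had -0.86 ± 0.10, whereas Rps27l, known as a target of p53, had 0.21 ± 0.12 (adjusted p = 0.112). Rpl36a had -0.64 ± 0.11 and Rpl36al -0.22 ± 0.11 (adjusted p = 0.0798). The differences between partners were not tested. Genes with a partner at trace level were Rpl3 (-0.47 ± 0.05), Rpl39 (-0.43 ± 0.11) and Rpl10 (-0.51 ± 0.06). Rps4x, whose partner Rps4l was below the threshold at 2.59 CPM, had -0.54 ± 0.06.

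Among the 7 members not called were Rps12, with 93.7 ± 16.6 CPM in VAT against 93.1 ± 17.3 CPM in spleen, and Rpl14, at 180 ± 32.4 and 201 ± 41.6 CPM. Their log2 fold changes were 0.03 ± 0.07 (adjusted p = 0.703) and -0.13 ± 0.07 (adjusted p = 0.0853). Rps19bp1 stood at 0.13 ± 0.13, and Rpl24 at -0.10 ± 0.16.

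Rps2, a 40S protein at the mRNA entry, varied more than any other member. Its level ran from 95.8 through a median of 401 to 484 CPM in VAT and from 98.5 through 290 to 616 CPM in spleen. Within single groups it differed several-fold: the VAT libraries at ZT12 read 484, 229 and 95.8 CPM, and those of spleen at ZT12 229, 616 and 502 CPM. The SD within groups was 0.67 on the log2 scale, against a median of 0.23 and a lowest value of 0.13 over members. Rps2 shares 50 or more of its 25-base words with each of 74 other genes, and 12 pseudogene rows carry its name. The members that share as many words with more genes were Rpl7a (123 genes), Rpl29 (85) and Rpl21 (84). Their SDs within groups were 0.18, 0.23 and 0.25. The part of such copies in the spread of Rps2 was not tested. Its log2 fold change was 0.14 ± 0.22 (adjusted p = 0.604).

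A second scaling asked how members differed relative to the family, with the summed counts of the 83 as the library size. On that scale 22 were higher in VAT, 26 lower and 35 not called, where 67.3% of all genes were called in either direction. Relative to the family, Rpl37 (-0.53 ± 0.09), Rpl12 (-0.49 ± 0.05) and Rps10 (-0.48 ± 0.11) were lowest. Rps27l (0.81 ± 0.11), Rps19bp1 (0.71 ± 0.13), Rps2 (0.70 ± 0.20), Rps12 (0.64 ± 0.08) and Rpl14 (0.47 ± 0.05) were highest. Some members must stand above and some below the family on this scale, and a few abundant genes set much of it. The 48 members called in either direction are therefore not read as a result about the family.

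One property of the libraries moved with tissue. For each library the slope of log2 level, less each gene's mean over all libraries, on log2 transcript length was taken, members left out. A slope is thus relative to the other libraries. Slopes averaged 0.031 in VAT (-0.059 to 0.088) and -0.029 in spleen (-0.093 to 0.028), so that spleen libraries held relatively more of short transcripts. With the slope as a covariate 51 members were lower in VAT and 0 higher, 50.6% of all genes were called, and the members' median was -0.34. Coding length and fold change had an r of -0.01 and a rho of 0.08 over 82 members. The summed B cell and macrophage markers, given above, also moved with tissue, and their part in the difference was not tested.

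Other genes of the protein synthesis machinery were taken from lists. For every list here and below, the shares to set beside it are those of all genes tested, 33.8% lower in VAT and 28.4% higher. All 3 of the other ribosome components were lower in VAT, among them Rack1 and Fau with log2 fold changes of -0.50 ± 0.05 and -0.40 ± 0.09. Of 37 translation factors 14 were lower and 6 higher (median -0.05), with Eef1g at -0.80 ± 0.06, Eef1b2 at -0.71 ± 0.06 and the start-site factor Eif1 at 1.49 ± 0.05. Of 16 other genes with TOP mRNAs 8 were lower and 1 higher, the latter the intermediate filament gene Vim at 4.23 ± 0.07, and the nucleolar gene Npm1 had -0.76 ± 0.06.

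Ribosome assembly genes gave 27 lower, 0 higher and 16 not called of 43 (median -0.29). The largest were Tsr1, a 40S maturation factor (-0.97 ± 0.09), Wdr12 (-0.91 ± 0.11) and Mdn1 (-0.81 ± 0.07), both of 60S maturation. RNA polymerase I and III genes were split, 7 lower and 7 higher of 25, with Polr1a, the large subunit of polymerase I, at 1.24 ± 0.08 and the polymerase III factor Brf2 at -1.30 ± 0.23. The shared subunit Polr2e had 0.72 ± 0.06. Of 32 regulators 12 were lower and 6 higher, with Eif4ebp1, a translation repressor under mTOR, at 1.54 ± 0.13, Rps6ka1 at 1.07 ± 0.05 and the Myc partner Max at -0.98 ± 0.11.

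Host genes of small nucleolar RNAs, whose spliced RNAs often carry a TOP motif, gave 2 lower and 4 higher of 10. Snhg15 had 2.62 ± 0.06, Snhg6 -1.40 ± 0.13 and Epb41l4aos -1.01 ± 0.19.

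The course over the day was tested with a 24 h cosine and sine in each tissue (2 degrees of freedom). An amplitude here is the log2 difference between the peak and the trough of the fit. In spleen 49 of 83 members passed (25 of the 60S subunit, 24 of the 40S, 0 of the 6 others), against 1.99% of all genes tested. At an unadjusted p under 0.05, 77 members and 15.6% of all genes passed. The fitted peaks of the 49 lay between ZT14.48 and ZT16.75, with a median of ZT15.76, and 1.09% of all genes were called with a peak between ZT12 and ZT20. The amplitudes of the 49 were 0.48 to 1.26. Over all members the median amplitude was 0.70, and over all genes 0.48.

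**Figure D4:**
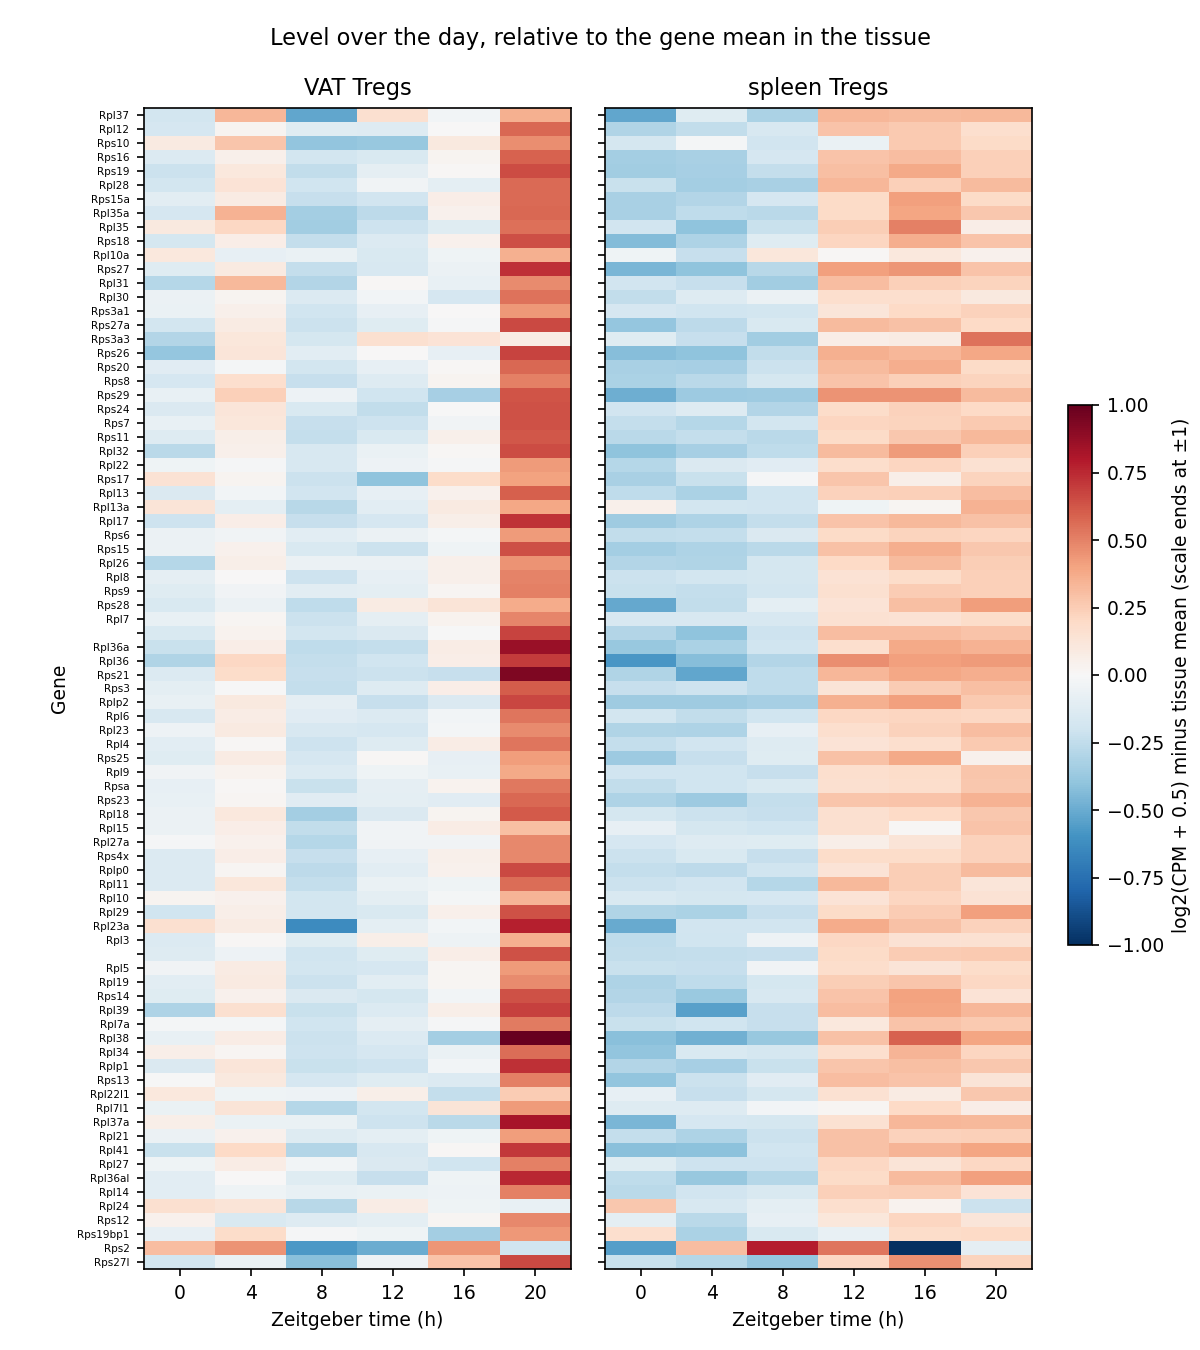
Mean log2(CPM + 0.5) at each Zeitgeber time in hours (columns), less the mean over that tissue's libraries, for the 83 genes (rows, in order of fold change between tissues), with red above and blue below the mean. In spleen most rows are blue from ZT0 to ZT8 and red from ZT12 to ZT20. In VAT 80 rows are highest at ZT20, and Rps2 differs from the other rows in both tissues.

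In spleen libraries the family took 2.65% ± 0.050 of counts at ZT0, 2.77% ± 0.326 at ZT4, 2.87% ± 0.219 at ZT8, 3.61% ± 0.453 at ZT12, 3.66% ± 0.616 at ZT16 and 3.68% ± 0.652 at ZT20 (SD, n = 3 each). By group means, 41 members were lowest at ZT0, 25 at ZT4 and 15 at ZT8. The highest group was ZT12 for 12 members, ZT16 for 39 and ZT20 for 29. Highest and lowest groups were not counted over all genes. The family's mean share in spleen was thus higher at ZT12, ZT16 and ZT20 than at ZT0, ZT4 and ZT8. Single libraries overlapped, with 3.045% in ZT16 A and 3.101% in ZT4 B.

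Rps20, a 40S head protein, had the smallest p in spleen. Its 9 libraries from ZT0 to ZT8 read 421, 428 and 460, then 519, 345 and 456, then 544, 420 and 456 CPM. Those from ZT12 to ZT20 read 644, 820 and 600, then 538, 865 and 740, then 543, 551 and 811 CPM. The amplitude was 0.84 ± 0.15 with a peak at ZT15.39 (adjusted p = 0.00519). High and low times overlapped in a few libraries.

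Among the next in order were Rplp2 (amplitude 0.97 ± 0.18, adjusted p = 0.00776), Rps14 (0.85 ± 0.16), Rps15 (0.86 ± 0.17) and Rps27 (1.08 ± 0.21). Rpl38, known for a role in translating Hox mRNAs, had the largest amplitude of those called, 1.26 ± 0.29 (adjusted p = 0.0362). Its spleen values ran from 7.19 CPM at ZT8 to 36.3 CPM at ZT16. Of the most abundant genes, Rps3, Rplp0 and Rpl8 passed with amplitudes of 0.63, 0.66 and 0.52, and Rpl4 had 0.50 (adjusted p = 0.0501). Of the 19 members with at least 10% unique words 14 passed, and of the 63 others 35.

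The count in spleen at an adjusted p under 0.05 rested on single libraries and times. It was 6 without the spleen library ZT16 B (0.618% of all genes), 12 without ZT4 C (0.891%), 26 without ZT8 C (0.853%), 30 without ZT8 D (0.861%) and 30 without ZT16 C (1.11%). With ZT8 left out in both tissues it was 0 (0.0705%), with ZT16 left out 10 (0.833%), with ZT4 15 (1.34%) and with ZT12 18 (1.1%), while it was 50 without ZT20 (1.95%). These whole times were left out after the data had been seen, ZT20 excepted. The unadjusted p moved less: 72 members had one under 0.05 without ZT16 B and 71 without ZT8, against 77 with all libraries. The members' median amplitudes in spleen were 0.63, 0.68 and 0.70 in these fits.

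Markers and transcript length moved with time in spleen as well. The summed B cell markers (CPM of library totals) averaged 1877 CPM at ZT0, 1937 at ZT4, 1641 at ZT8, 1808 at ZT12, 2228 at ZT16 and 2865 at ZT20. Length slopes were -0.017 to -0.001 at ZT0 and -0.076 to -0.066 at ZT20, and the lowest, -0.093, was at ZT16. With the slope as a covariate 34 members passed, against 0.685% of all genes. Shorter members had larger amplitudes: amplitude and coding length had an r of -0.55 and a rho of -0.58 over 82 members that share libraries. An amplitude cannot fall below 0, so noise tends to raise it. From the shortest up, Rpl41, Rpl39, Rps29, Rps28 and Rpl38 had SDs within groups of 0.25, 0.33, 0.36, 0.32 and 0.39 (log2). The median over members was 0.23. The parts of this spread and of the B cell markers were not tested.

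**Figure D5:**
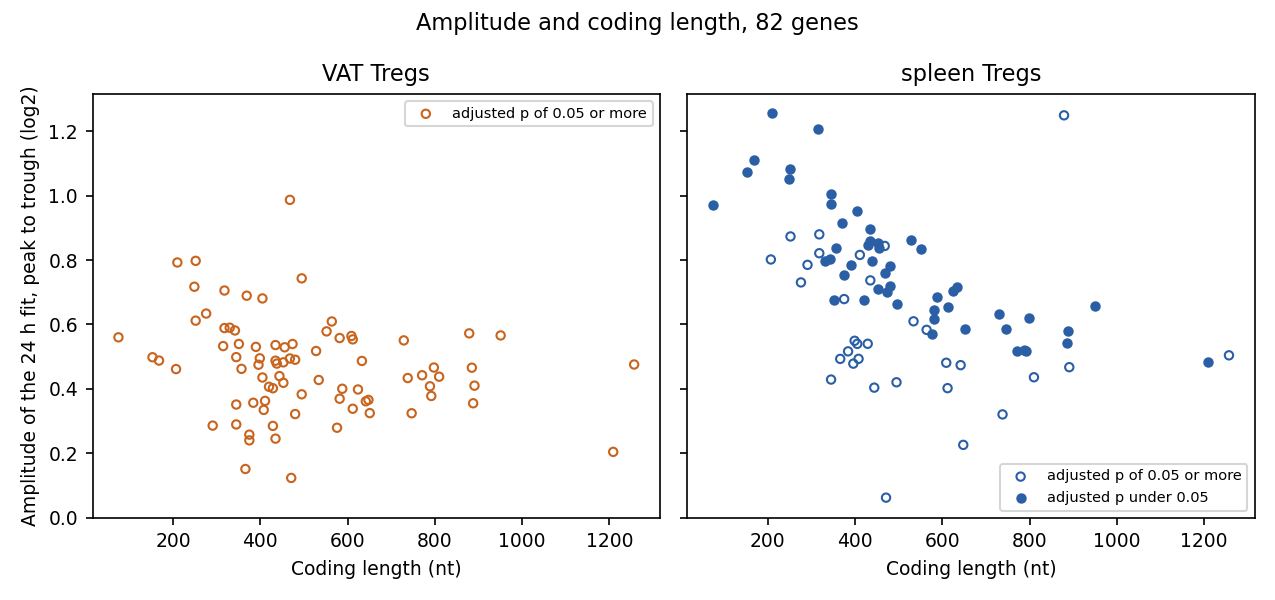
Amplitude of the 24 h fit, peak to trough in log2 (vertical axis), against coding length in nt (horizontal axis) for 82 genes in VAT (left) and spleen (right), filled where the adjusted p was under 0.05. In spleen the short genes reach the largest amplitudes, and no gene is filled in VAT.

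In VAT 0 of 83 members passed with edgeR's quasi-likelihood test (1.88% of all genes did), and the lowest adjusted p was 0.0562. At an unadjusted p under 0.05, 52 members passed, and 17.5% of all genes. DESeq2's test called 4 (Rpl13a, Rpl23a, Rplp0 and Rps3), against 8.91% of the genes to which it gave an adjusted p. The 2 libraries at ZT20 stood apart: the family took 2.12% and 2.29% of their counts and at most 1.76% in any other VAT library. By group means 80 members were highest at ZT20, a mean of only 2 libraries, and 55 were lowest at ZT8. How many of all genes were so was not counted. The length slopes of these 2 libraries, -0.046 and -0.059, were below those of the other 15 VAT libraries.

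Without ZT20 the members' median amplitude in VAT was 0.19, against 0.47 with it, and 2 members had an unadjusted p under 0.05. The call in VAT also turned with single samples. It was 31 members without the VAT library ZT0 C (6.36% of all genes), 6 without ZT16 B (3.46%) and 49 without all of ZT0 (9.71%), an alternative chosen after the data had been seen. Calls thus rose over all genes as well. With the length slope as a covariate the median amplitude was 0.14 and 0 members had an unadjusted p under 0.05.

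Rpl23a, which lies at the exit of the nascent chain, had the smallest p in VAT. Its libraries at ZT20 read 28.1 and 23 CPM, those at ZT8 9.79, 11 and 7.31 CPM and the remaining ones 12.5 to 21.7 CPM. The amplitude was 0.99 ± 0.25 with a peak at ZT20.9 (adjusted p = 0.0562). Rplp0, Rps3, Rpl13a and Rpl4 were among those that followed, with amplitudes of 0.57, 0.55, 0.56 and 0.48 and peaks between ZT19.89 and ZT20.37.

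The difference in rhythm between tissues was tested directly. It passed for 0 of 83 members with edgeR's test (0.00629% of all genes, 1 gene) and for 0 with DESeq2's. At an unadjusted p under 0.05, 55 members and 9.09% of all genes passed. The smallest p was that of Rplp2 (adjusted p = 0.202), followed by Rps13, Rpl23a and Rps14. Rplp2 read 66.5, 64.3 and 65.2 CPM in VAT at ZT12 and 135, 192 and 139 CPM in spleen. At ZT20 it read 132 and 113 CPM in VAT and 117, 131 and 195 CPM in spleen. A daily course that is called in spleen and not in VAT was therefore not shown to differ between them.

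Of the other genes of the machinery, some passed the rhythm test, where 1.99% of all genes did in spleen and 1.88% in VAT. In spleen the ribosome component Fau passed (amplitude 1.00 ± 0.21, peak ZT15.49, adjusted p = 0.0166), as did 3 of 37 translation factors, among them Eef1b2 (0.55, ZT16.47) and Pabpc1 (0.57, ZT15.41), and 4 of 16 other TOP genes, among them Tpt1 (0.55, ZT16.52). The lists overlap, and these were 4 genes in all, 3 of them in both lists. At an unadjusted p under 0.05, 13 of the 37 and 12 of the 16 passed, against 15.6% of all genes. Of 43 ribosome assembly genes 0 passed in either tissue with edgeR's test (7 in spleen and 14 in VAT at an unadjusted p under 0.05). Of 32 regulators 1 passed in spleen, Myc, which drives ribosome production (amplitude 0.62, peak ZT16.21, adjusted p = 0.0446). At an unadjusted p under 0.05, 3 of the 32 passed there, against 15.6% of all genes. Of 25 RNA polymerase I and III genes 1 passed in spleen, with a peak at ZT7.48. In VAT Rack1 passed (0.49, peak ZT19.2, adjusted p = 0.0415), and so did Eef2 (0.38, ZT10.63), Eif4e (0.59, ZT18.37) and Polr1d (0.68, ZT20.6). In the same test the mitochondrial ribosomal protein genes gave 1 of 75 in spleen and 3 in VAT.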

How the data were processed

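Raw read counts per gene symbol, as deposited by the authors, were the only values used. The submitters' processing notes name STAR 2.7.3a, featureCounts and mm10. The annotation, strandedness and treatment of multi-matching reads are not given in the labels used here. Per the labels' protocols, mRNA was captured with oligo-dT and amplified before sequencing in pairs of 25 nt. No molecular identifiers are named, so counts are not independent molecules.

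The tests used edgeR 4.0.16 in R 4.3.3. The filterByExpr function with the 12 groups left 15910 genes, libraries were scaled with TMM, and robust quasi-likelihood p-values were adjusted by Benjamini-Hochberg over all of them at a threshold of 0.05. Contrasts were VAT minus spleen over the mean of 6 times, a 24 h cosine and sine per tissue in 1 model, and their difference. These fits were also run on simulated independent counts, with no shared library effect beyond library size. That run cannot show how single libraries affect the calls, and its outcome is not used here. Coding sequences, positions and transcript lengths came from GENCODE M21 (GRCm38). DESeq2 1.42.0, other scalings, filters, a length covariate, a replicate block and omitted libraries were alternatives.

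Genes were named by rule: the 8 largest rises and falls between tissues, the 5 highest, 5 on each side of the 5 CPM threshold, paralogs, the 6 smallest rhythm p per tissue and the 4 smallest difference p. From each list came the 3 largest called differences and up to 2 smallest rhythm p per tissue. Rpl38, Rps2 (for its spread), Rpl41 and the uncalled members were added after their values were seen. Some genes the rule names are not reported here. Members and lists were chosen with earlier results of these data known. Markers of neutrophils, CD8 T cells, NK cells, adipocytes, stromal or mesothelial, endothelial and erythroid cells averaged 0.323, 13.2, 0.67, 1.59, 4.14, 2.02 and 3.08 CPM in VAT and 0.503, 14, 3.18, 1.39, 2.45, 3.15 and 15.6 CPM in spleen.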

Additional observations from a re-analysis of the deposited data

Results flagged for a closer look

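Rows for ribosomal protein pseudogenes, with symbols ending in "-ps" and a number, were outside every comparison above but held counts. There were 319 such rows, of which 294 had counts. Their summed level, in CPM of library totals, averaged 189.2 ± 32.7 CPM in VAT (SD, n = 17; 146 to 259 CPM) and 373.1 ± 79.2 CPM in spleen (SD, n = 18; 277 to 526 CPM). A count of 0 in the shallowest library allows up to 1.45 CPM for a single row. That limit does not apply to a sum over 319 rows, so the summed level is not judged by it. On library totals the ranges of the summed level in the tissues did not overlap. After TMM scaling they did, at 165 to 309 CPM in VAT and 241 to 492 CPM in spleen. Whether these reads came from the pseudogenes or from the member genes was not tested.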

How the results depend on the processing

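The 76 members lower in VAT became 26 on the scale of the family's own counts, where 22 rather than 0 were higher, and 16 among the 19 members with at least 10% unique words, a subset that cannot give more than 19. With symbols at 1 CPM or more, 1 was higher in VAT, the paralog Rps4l. Leaving out 1 library gave 74 to 78 lower and 0 higher, and a share difference of -1.62 to -1.5 percentage points, against -1.02 with TMM library sizes. Library totals moved the median of all genes from -0.10 to -0.45 and that of the members to -0.97.

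Rhythmic members in VAT numbered 0 to 31 with 1 library left out, 12 without a low-count filter (3.31% of 47525 genes), 4 with DESeq2's test (Rpl13a, Rpl23a, Rplp0 and Rps3), 49 without ZT0, 3 without ZT4 and 4 without ZT16. In spleen they numbered 6 to 64 with 1 library left out, 15 without ZT4, 0 without ZT8, 18 without ZT12, 10 without ZT16, and 14 of the 19 with more unique words. DESeq2's test called 67 in spleen (8.25% of the genes to which it gave an adjusted p). With spleen fitted alone, edgeR's test called 62 (4.45% of 13120 genes). The difference in rhythm stayed at 0 with any 1 library left out, but was 17 without a filter (3.26% of all genes) and 1 (Rplp2) without ZT20. Single times and the unique words were alternatives chosen after seeing the data, ZT20 excepted.

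Signs turned for single genes, in log2. On the family scale these were Rpl4 0.014, Rplp0 0.065, Rpl24 0.47, Rplp1 0.24, Rpsa 0.021, Rpl22l1 0.31, Rpl7l1 0.32, Rpl3 0.13, Rpl36al 0.38, Rpl39 0.17, Rpl10 0.094, Rps4x 0.055, Rpl23a 0.13, Rps14 0.16, Rps13 0.28 and Rpl14 0.47. With the length slope they were Rpl24 0.18, Rpl22l1 0.023, Rpl36al 0.17, Rps13 0.014 and Rpl14 0.17. With library totals they were Rps19bp1 -0.22, Rps27l -0.13, Rps2 -0.21 and Rps12 -0.31. Rps2 had -0.012 without ZT0 and -0.12 without ZT16, and Rps12 -0.034 without ZT20. The family scale and library totals change the library size, which shifts all genes together. The median of all genes was 0.48 on the family scale and -0.45 with library totals, against -0.10 in the main fit. The causes of the other sign changes were not tested.

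Libraries of VAT and spleen share replicate letters at each time. Over 17 such pairs the deviations from the group means correlated at -0.112 to 0.057, none above 0.1, so the letters are not taken as a pairing. With a replicate block 74 members were lower in VAT and 0 higher, 0 were rhythmic in VAT, 47 in spleen and 0 differed between tissues.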
